A study of Mus musculus with 6 samples.

Results

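Epithelial ion transport genes were followed in acinar-type mammary tumors and control mammary glands of the mouse. The 8 genes, *Slc12a2*, *Kcnn4*, *Cftr*, *Scnn1a*, *Scnn1b*, *Atp1b1*, *Slc34a2* and *Kcnk1*, were taken by their symbols in the platform annotation, which gives them 17 of 45101 probe sets and places them among 18193 named genes. RNA of 3 tumors from *K14-cre*; ApcCKO/+ mice and of 3 control mammary glands from age-matched mice without *cre* had been hybridized to 6 Affymetrix arrays, 1 for each sample. The *K14* promoter drives Cre in embryonic cells that later form both basal and luminal mammary epithelium, and all of the tumors carried the recombined *Apc* allele beside a truncating mutation in the other allele. The tumors were chosen for their acinar histology, and the ages and the *Apc* genotype of the control mice were not given in the sources used here. The labels call each sample a biological replicate, but whether each came from a separate animal is not stated. The p-values therefore rest on the spread between these samples and may not carry over to other mice.

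Epithelia move salt and water with a division of labor between their membranes. The sodium pump on the basolateral side, the Na,K-ATPase, keeps sodium low inside the cell. The cotransporter encoded by *Slc12a2* uses that gradient to load chloride for secretion, the chloride channel encoded by *Cftr* lets chloride out on the luminal side, and potassium channels such as those of *Kcnn4* and *Kcnk1* keep the membrane voltage that drives the anion out. Absorptive epithelia instead take up sodium through the epithelial sodium channel, built from the products of *Scnn1a*, *Scnn1b* and *Scnn1g*. In the mammary gland these systems help to set the ion content of milk, and the phosphate transporter encoded by *Slc34a2* is known as a gene of the secretory epithelium.

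The levels are MAS 5.0 signals on a linear scale. Signals below 50 were set to 50 before log2 values were taken, and the fold changes are differences of log2 signals, tumor minus control gland, from limma with adjustment over 12518 tested genes. The labelled tissue was checked against marker lists. All of 8 epithelial markers were higher in tumors, with a summed signal of 93896 to 115941 against 15444 to 29409 in control glands. Of adipocyte markers 7 of 7 tested were lower (summed signal 1406 to 11050 against 120896 to 161081), and of fibroblast and matrix markers 8 of 8 were lower (2320 to 14915 against 64228 to 77538). The gene with the highest mean signal had a log2 fold change of 1.97 for the epithelial list (*Krt18*), −3.46 for adipocytes (*Fabp4*, −2.48 without tumor replicate 3), −3.28 for fibroblasts (*Dcn*), −1.54 for endothelium (*Esam*), −1.22 for leukocytes (*Csf1r*), −3.27 for Schwann cells (*Pmp22*) and 0.78 for basal epithelium (*Acta2*). *Acta2* was not called without any 1 of control replicates 1 to 3 or tumor replicate 1 (adjusted p from 0.0538 to 0.0649), nor *Esam* without control replicate 2 or 3 or tumor replicate 2 (0.0577 to 0.0623). The Schwann cell list went both ways, with 1 of 5 tested higher and 2 lower, a median of −0.15 and *Sox10* at 2.42 (adjusted p = 0.0156). So did the basal list, with 3 of 8 higher and 1 lower, *Oxtr*, the oxytocin receptor gene, at −2.76 (adjusted p = 0.00465). Control replicate 2 stood apart, with the lowest sum of epithelial markers, the highest sum of 8 skeletal muscle markers (191238, against 7498 and 72655 in the other control glands and 553 to 39790 in tumors; *Acta1* was the brightest) and the lowest sum of 8 milk and alveolar markers (9944, against 85836 and 93946 in the other control glands and 60494 to 152447 in tumors; *Csn3* was the brightest). Control replicate 1 had the highest sum of leukocyte markers (19874, against 9188 and 10458 in the other control glands and 3450 to 4401 in tumors). In whole tissue, fewer cells of a type and less RNA per cell cannot be told apart. Each member is therefore given with all of its signals.

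The potassium channel gene *Kcnn4* showed the largest change of the 8 genes. It encodes the intermediate-conductance channel opened by calcium, which in secretory epithelia lets potassium out across the basolateral membrane. Its signal was 1091, 553.8 and 1538 in the control glands and 16428, 28126 and 32014 in the tumors. The lowest tumor lay far above the highest control gland, and control replicate 2 was the lowest of all. The means were 1061 ± 493 (SD, n = 3 control glands) and 25523 ± 8113 (SD, n = 3 tumors), or 4.65 ± 0.43 (SE) on the log2 scale (adjusted p = 0.000454 from limma), which is a 25.2-fold rise with a 95% confidence interval of 12.6 to 50.3. By the size of the rise *Kcnn4* was number 18 of the 12518 genes. A second probe set gave the same call, with 241.2, 88.4 and 397.4 in control glands, 4648, 7194 and 11246 in tumors and a difference of 5.15 ± 0.56 (SE) on the log2 scale (adjusted p = 0.000712 among 26967 probe sets). Without any single array the log2 fold change lay between 4.24 and 4.98.

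*Kcnk1*, which encodes a potassium channel of the family with paired pore domains that carries background currents, rose as well. Its signal was 837.8, 275 and 880.6 in the control glands and 3698, 3514 and 3069 in the tumors. The tumors lay close together and above every control gland, and control replicate 2 was again the lowest. The means were 664 ± 338 (SD, n = 3) and 3427 ± 323 (SD, n = 3), or 2.54 ± 0.45 (SE) on the log2 scale (adjusted p = 0.00553), or 5.81-fold with a 95% confidence interval of 2.82 to 12.0. Its second probe set had 157.5, 5.8 and 169.7 in control glands, against 849.8, 649.4 and 405.7 in tumors, with 2.46 ± 0.50 (SE) on the log2 scale (adjusted p = 0.00994), where control replicate 2 was set to 50. Leaving out 1 array gave log2 fold changes from 1.99 to 2.83 for *Kcnk1*.

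**Figure D1:**
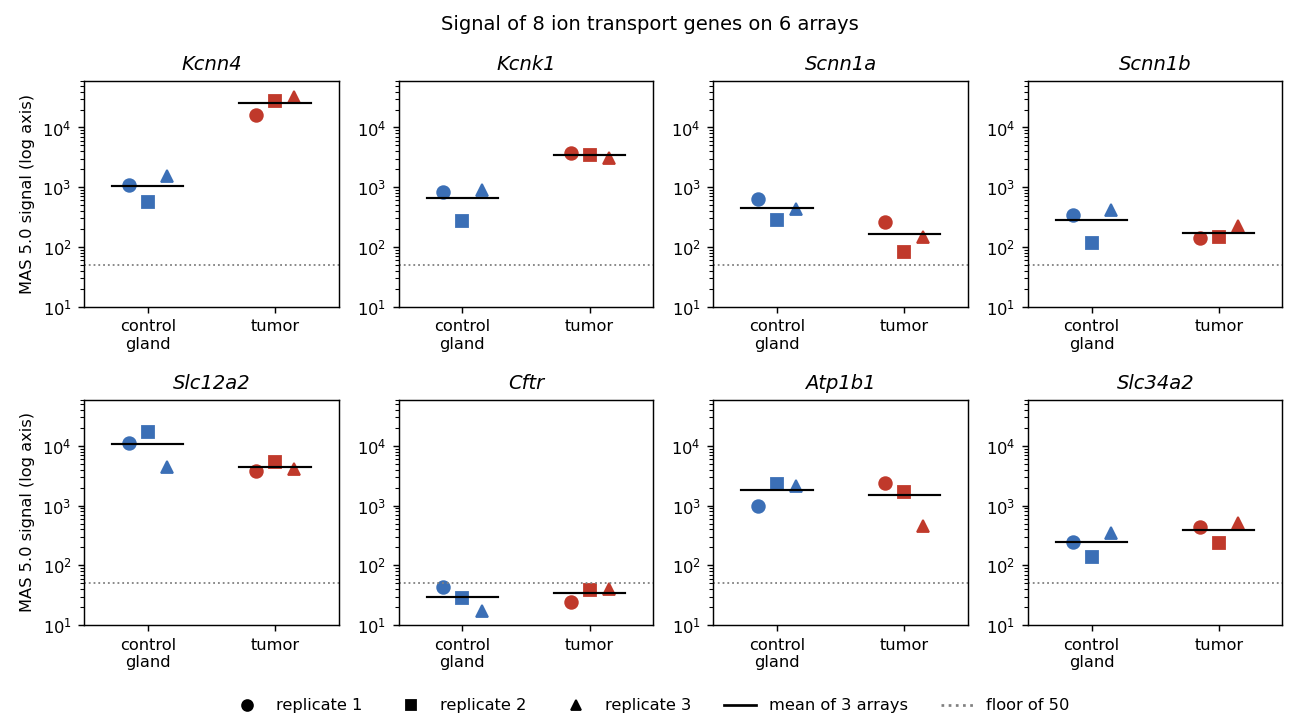
MAS 5.0 signal on a log axis for each of the 8 genes, with blue symbols for control glands, red symbols for tumors, the symbol shape for the replicate number, a black line for the mean of 3 arrays and a dotted line at 50. The tumors lie above all control glands for *Kcnn4* and *Kcnk1* and below them for *Scnn1a*, the groups overlap for the other genes, and *Cftr* stays below 50 on all 6 arrays.

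The promoter windows of both genes that rose are shown so that their bases can be compared. They come from RefSeq (GRCm38.p6) and run from 250 bases before to 50 bases after a transcript start on the plus strand. The *Kcnn4* gene lies at chr7:24369826-24385212 and its window at chr7:24370013-24370312, which belongs to a transcript start 437 bases inside the gene. The *Kcnk1* gene lies at chr8:125993655-126030685 and its window at chr8:125994852-125995151, which belongs to a transcript start 1447 bases inside the gene. Capitals mark matches, on either strand, to the motifs searched.
Kcnn4: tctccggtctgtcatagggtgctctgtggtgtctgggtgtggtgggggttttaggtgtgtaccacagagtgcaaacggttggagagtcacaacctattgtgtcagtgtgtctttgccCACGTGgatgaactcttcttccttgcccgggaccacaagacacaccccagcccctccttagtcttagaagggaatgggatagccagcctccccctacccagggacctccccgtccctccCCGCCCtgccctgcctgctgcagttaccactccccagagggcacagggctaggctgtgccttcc
Kcnk1: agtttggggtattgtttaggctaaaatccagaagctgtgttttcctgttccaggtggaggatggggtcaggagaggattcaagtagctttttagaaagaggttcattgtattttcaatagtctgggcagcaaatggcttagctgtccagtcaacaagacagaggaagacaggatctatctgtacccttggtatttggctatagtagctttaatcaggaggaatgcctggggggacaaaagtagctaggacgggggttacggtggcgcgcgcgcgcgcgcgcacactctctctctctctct
The letters CTTTGAT, which TCF/LEF factors bind, and CTTTGTT, a weaker form of the same site, were searched first. Also searched were the E-box CACGTG and the GC box, spelled GGGCGG. The other motifs were TGANTCA of AP-1, then CCGGAAG of ETS factors, and last AACNGGTT of Grainyhead factors. The *Kcnn4* window held 1 E-box, at positions −133 to −128 from the start, and 1 GC box on the minus strand, at −14 to −9. The *Kcnk1* window held no match to any of them. Among 32851 windows of the same length, 7.15% hold the E-box and 35.7% the GC box. The TCF/LEF letters, in 3.73% (CTTTGAT) and 5.85% (CTTTGTT) of windows, were in neither of these windows. Of the 6 members with a window, *Scnn1b* held CTTTGTT and *Atp1b1*, *Cftr* and *Scnn1b* held the GC box. The GC content was 59.7% for the *Kcnn4* window and 49.0% for that of *Kcnk1*, against a median of 52.7%.

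Of the epithelial sodium channel, 1 subunit gene was lower in tumors. *Scnn1a*, at chr6:125314271-125344943, encodes the α subunit, without which the channel conducts little. Its signal was 644.4, 276.3 and 431.2 in the control glands and 265.5, 82.3 and 144.4 in the tumors. The groups did not overlap, though tumor replicate 1 lay just under control replicate 2. The means were 451 ± 185 (SD, n = 3) and 164 ± 93.2 (SD, n = 3), or −1.53 ± 0.48 (SE) on the log2 scale (adjusted p = 0.0442), or 2.90-fold lower with a 95% confidence interval of 1.33 to 6.31. The call lay near the threshold. It was lost without control replicate 1 (adjusted p = 0.120) or 3 (0.104), without tumor replicate 2 (0.121) or 3 (0.102), with a floor of 16 (0.0521) and with no filter on low signals (0.143), within a range of 0.0104 to 0.234 over the alternatives.

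*Scnn1b*, which encodes the β subunit, had signals of 337.2, 115.7 and 406.7 in the control glands and 142.7, 145.9 and 219.2 in the tumors. The groups overlapped through control replicate 2, which was below every tumor. The log2 fold change was −0.60 ± 0.48 (SE, 95% confidence interval −1.72 to 0.52, adjusted p = 0.370). Without control replicate 2 it was −1.16 and passed the test (adjusted p = 0.0313, where the alternatives reached up to 0.742). *Scnn1g*, the γ subunit gene, did not reach a signal of 100 on 3 arrays and was not tested, with 28.5 to 85.2 in control glands and 20.4 to 74.9 in tumors.

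Of the members for chloride entry and exit, *Slc12a2* was not called and *Cftr* was not tested. *Slc12a2*, the sodium-potassium-chloride cotransporter of secretory cells, had signals of 11191, 16980 and 4388 in the control glands and 3784, 5342 and 4110 in the tumors. The control glands were widely spread, with control replicate 3 inside the range of the tumors, whereas the tumors lay within 3784 to 5342. The log2 fold change was −1.11 ± 0.48 (SE, 95% confidence interval −2.22 to 0.00, adjusted p = 0.112). Without control replicate 3 it was −1.66 and passed the test (adjusted p = 0.0146, within a range up to 0.363). The differences at its other probe sets were −0.38 (adjusted p = 0.643) and −0.81 (adjusted p = 0.268) on the log2 scale. Control replicate 2, with the highest *Slc12a2*, was the gland with the lowest sum of milk markers and the highest sum of muscle markers given above, and the part of these in the result was not tested.

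*Cftr*, the chloride channel gene, was not above the floor in either tissue. Its brighter probe set had signals of 43.2, 28.4 and 17.3 in the control glands and 24.6, 38.0 and 39.6 in the tumors, and the other one had 5.8 to 15.4 and 8.2 to 25.2. All of these lay below 50, so that *Cftr* failed the filter and no fold is given. These arrays therefore give only a bound for *Cftr*, and a difference under it was not detectable.

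*Atp1b1*, which encodes the β1 subunit that brings the sodium pump to the membrane, had signals of 977.5, 2329 and 2101 in the control glands and 2421, 1691 and 455.1 in the tumors. The tumors spread more widely than the control glands, with the highest and the lowest value of all arrays among them. The log2 fold change was −0.45 ± 0.64 (SE, 95% confidence interval −1.95 to 1.04, adjusted p = 0.618), and 0.26 without tumor replicate 3 (adjusted p = 0.685, within 0.388 to 0.967 over the alternatives). The 3 other tested probe sets of *Atp1b1* had log2 fold changes between −0.23 and −0.13 with adjusted p from 0.813 to 0.857, and tumor replicate 3 was the lowest of all arrays in each. The remaining one lay at 41.2 to 61.5 and was not tested.

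*Slc34a2*, the sodium-phosphate cotransporter gene of secretory epithelia, had signals of 244.7, 135.8 and 351.9 in the control glands and 435.9, 235.5 and 519.4 in the tumors. Tumor replicate 2 fell among the control glands and control replicate 2 was the lowest. The log2 fold change was 0.73 ± 0.43 (SE, 95% confidence interval −0.28 to 1.74, adjusted p = 0.230), and the interval still holds a 3.33-fold rise.

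Of the 8 genes, 7 were tested, with 2 higher, 1 lower and 4 not called. Over all tested genes 33.1% were called, 16.3% higher and 16.8% lower, so that 3 of 7 is near the background and the members as a group were not set apart by the number of calls. With equal array medians in place of the deposited scaling, 64.5% of all calls were higher in tumors, against 49.4% in the main comparison, and the median log2 fold change of all genes was 0.31 in place of 0.07. The median of the 7 tested members was −0.45. Among probe sets, 5 of the 14 tested were called, 4 higher and 1 lower, where 26.3% of all probe sets were called and 11.7% were called higher. The tumors were all above the control glands for *Kcnn4* and *Kcnk1* and all below them for *Scnn1a*, as for 27.1% and 23.1% of all genes. No probe set of a called gene went against another of the same gene.

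**Figure D2:**
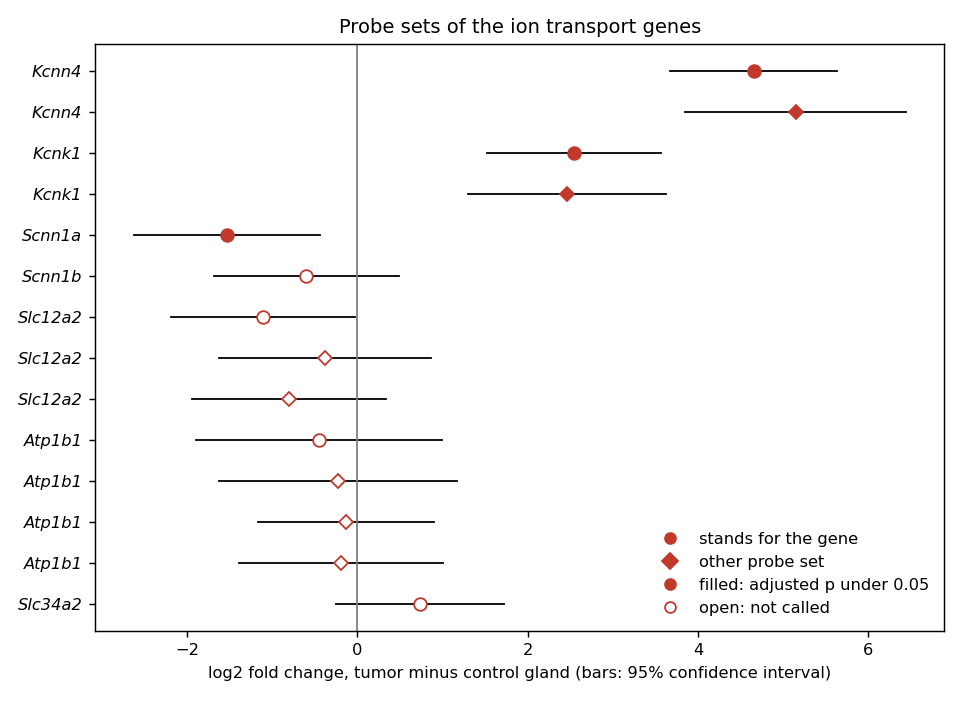
Log2 fold change, tumor minus control gland, of the 14 tested probe sets of 7 genes, with bars for the 95% confidence interval. Circles stand for the gene, diamonds are its other probe sets, and filled symbols have an adjusted p under 0.05. Both probe sets of *Kcnn4* (4.65 and 5.15) and of *Kcnk1* (2.54 and 2.46) lie to the right of 0, and all 4 of *Atp1b1* span 0.

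Since the epithelial markers differed between the groups, the members were also set against them. On each array the mean log2 signal of the 8 epithelial markers was subtracted from the log2 signal of the member, and the values were centered on the mean of the control glands. These are descriptions, with no test. They bear on epithelium only where the signal of a member comes from epithelial cells, which whole tissue does not show. The marker mean itself was 2.33 to 2.54 above the control mean in tumors and −0.76 to 0.50 in control glands, with control replicate 2 the lowest. *Kcnn4* remained 1.74 to 2.56 above the control mean in every tumor after the subtraction, while the control glands lay within −0.10 to 0.16. *Kcnk1* did not, with tumors at −0.09 to 0.32 and control glands at −0.34 to 0.25, a mean difference of 0.09 where the unsubtracted difference was 2.54. *Kcnk1* thus differed about as much as the epithelial markers, and *Kcnn4* more.

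The other members were below the control glands on this scale, in every tumor. The mean difference was −3.99 for *Scnn1a*, −3.05 for *Scnn1b*, −3.56 for *Slc12a2*, −2.90 for *Atp1b1* and −1.72 for *Slc34a2*, whose unsubtracted difference was 0.73. The marker mean itself was 2.45 higher in tumors, while the median log2 fold change of all genes was 0.07. A gene with the same signal on all arrays would thus also fall below the control glands on this scale. The share of all genes that did so was not computed. For *Scnn1b* the tumors lay at −3.33 to −2.68 and the control glands at −0.36 to 0.20. The spread among control glands changed as well. For *Kcnn4* the SD of log2 signals over the 3 control glands was 0.75 before and 0.14 after the subtraction, for *Slc34a2* 0.69 and 0.14, for *Kcnk1* 0.95 and 0.31, for *Scnn1b* 0.98 and 0.31 and for *Scnn1a* 0.61 and 0.43. It was larger after it for *Slc12a2*, at 1.00 and 1.60, and for *Atp1b1*, at 0.68 and 1.14. After the subtraction control replicate 2 lay above the control mean by 1.61 for *Slc12a2* and by 1.22 for *Atp1b1*, whereas for the other 5 genes it lay within −0.36 to 0.14. The summed signal of basal markers differed less between the groups, at 21325 to 27343 in tumors and 15092 to 16767 in control glands. Most of that sum was *Acta2*, with 16618.5 to 19442.8 in tumors and 9566.2 to 10799.6 in control glands. Single basal markers went both ways, as given above, with 3 of 8 higher and 1 lower.

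**Figure D3:**
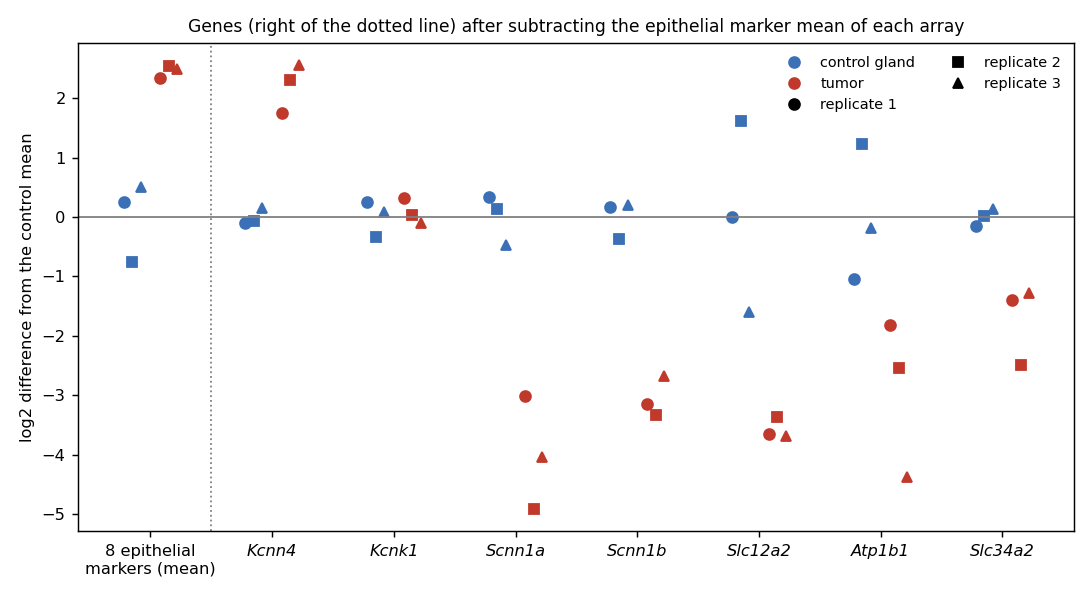
Log2 difference from the mean of the 3 control glands, in blue for control glands and red for tumors, with 1 symbol shape for each replicate. The first column is the mean of 8 epithelial markers, and the others are the members after that mean was subtracted on each array. *Kcnn4* stays 1.74 to 2.56 above the control mean in tumors, *Kcnk1* overlaps the control glands, and the other 5 genes lie below them. A gene with the same signal on all arrays would lie below them too.

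Genes with a pattern most like that of *Kcnn4* were found by the root mean square distance between log2 signals centered on the gene mean over the 6 arrays. The nearest of the tested genes was *Bnipl*, at a distance of 0.24, with signals of 65.0, 52.2 and 104.3 in control glands against 1480, 2378 and 2284 in tumors. *Dkkl1* followed at 0.24, with 145.4, 88.0 and 181.0 against 1540, 2930 and 3885. *Folr1*, which encodes a folate receptor, came next at 0.24, with 221.0, 112.3 and 346.4 against 4085, 4051 and 6762. In all of them control replicate 2 was the lowest of the 6 arrays, as for *Kcnn4*. They were chosen for likeness to *Kcnn4* on these same arrays, so this is no separate result.

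Other genes of epithelial ion transport were read from the same fit in 6 lists with 88 genes, of which 80 were named by the annotation and 51 were tested. Of these, 9 passed the test as higher and 14 as lower, and 28 missed it, against 16.3% higher and 16.8% lower among all genes, and the median log2 fold change was −0.33 where that of all genes was 0.07. Without control replicate 2, 7 were higher and 8 lower, without control replicate 3, 6 and 8, and without tumor replicate 3, 5 and 10. Over all genes the calls fell as well, from 4143 to 2745, 2392 and 2962 in the same order. Part of the drop in the lists was genes left untested. Without a control gland *Fxyd2*, *Hsd11b2*, *Kcnk3* and *Kcnq5* missed the filter, as did *Ano9* without a tumor.

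Of 8 tested genes of the sodium pump, 1 was higher and 4 were lower. *Fxyd3*, whose small membrane protein regulates the pump in epithelia, had 4461, 1198 and 4529 in control glands, against 14231, 23994 and 14798 in tumors, or 2.57 ± 0.53 (SE) on the log2 scale (adjusted p = 0.0103). Without control replicate 2 it was 1.93 and still called, and with no filter on low signals it was not called (adjusted p = 0.0592, the range over the alternatives being 0.00267 to 0.152). Its relatives fell, *Fxyd1*, phospholemman of muscle and heart, with −4.09 on the log2 scale (adjusted p = 0.00196, 1 tumor below 50) and *Fxyd2*, the γ subunit, at least 11.4-fold lower (adjusted p = 0.000126), since all tumors lay below 50 against 502.4 to 610.5 in control glands. *Fxyd6* and *Fxyd5* were lower by the same test, at −1.80 (adjusted p = 0.0258) and −1.02 (adjusted p = 0.0255). *Fxyd6* was not called without control replicate 1 or 2 or tumor replicate 3 (adjusted p = 0.0536, 0.0744 and 0.0557), nor *Fxyd5* without control replicate 1 or 3 or tumor replicate 2 or 3 (0.0760, 0.0651, 0.0526 and 0.0748). *Fxyd4* and *Atp1b3*, which encodes the β3 subunit, had −0.09 (adjusted p = 0.795) and −0.33 (adjusted p = 0.323).

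Among cation-chloride cotransporters and their kinases 2 of 8 were lower and none was higher. Both were potassium-chloride cotransporters, *Slc12a4*, with 362.6, 569.3 and 459.8 in control glands against 117.6, 76.3 and 130.2 in tumors and −2.11 ± 0.29 (SE) on the log2 scale (adjusted p = 0.00204), and *Slc12a7*, with −1.97 (adjusted p = 0.00924). *Wnk2*, a kinase of the family that controls these transporters, and *Slc12a9* had −0.37 (adjusted p = 0.598) and 0.22 (adjusted p = 0.564).

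Of 7 tested genes around the sodium channel, 2 were higher and 1 was lower. Both higher genes encode serine proteases of the epithelial surface that can act on the channel. *St14*, matriptase, had 977.0, 356.2 and 866.4 in control glands, against 3581, 3715 and 5012 in tumors, or 2.60 ± 0.40 (SE) on the log2 scale (adjusted p = 0.00332), and *Prss8*, prostasin, had 254.4, 147.3 and 385.8 against 1142, 1150 and 1922, a log2 fold change of 2.48 (adjusted p = 0.00369). For neither protease did the groups overlap, as for the 27.1% of all genes with every tumor above every control gland. The channel's own *Scnn1a* was lower in the same tumors, by a call near the threshold that was lost in 8 of 19 alternatives. *Hsd11b2*, which shields the mineralocorticoid receptor from glucocorticoids, fell by 1.23 on the log2 scale (adjusted p = 0.0126), and with a floor of 16 it was not called (adjusted p = 0.0625, −1.78). *Nr3c2*, the receptor itself, and its target *Sgk1* had −0.69 (adjusted p = 0.402) and −0.28 (adjusted p = 0.394).

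Genes of chloride and bicarbonate transport were called in both directions, 4 higher and 4 lower of 14. *Ano9*, of the anoctamin family, had 95.2, 34.0 and 92.2 in control glands, against 621.2, 301.5 and 709.6 in tumors, or 2.75 ± 0.40 (SE) on the log2 scale (adjusted p = 0.00272). *Slc9a3r1*, a scaffold protein that anchors CFTR and other transporters at the luminal membrane, rose by 1.75 on the log2 scale (adjusted p = 0.00632), *Slc26a2*, a sulfate transporter, by 1.34 (adjusted p = 0.0129) and *Clcn3* by 1.03 (adjusted p = 0.0344). *Slc4a4*, a sodium-bicarbonate cotransporter, fell from 1185, 761.7 and 616.9 to 141.7, 135.6 and 103.5, or −2.71 ± 0.29 (SE) on the log2 scale (adjusted p = 0.000845). The anion exchanger *Slc4a3* had −1.46 (adjusted p = 0.0282), *Ano6* −1.27 (adjusted p = 0.00365) and *Slc26a6* −0.90 (adjusted p = 0.0468), and *Slc4a2* and *Slc26a11* had 0.14 (adjusted p = 0.778) and −0.21 (adjusted p = 0.643). *Slc4a3* was not called without control replicate 2 or 3 or tumor replicate 2 or 3 (adjusted p from 0.0753 to 0.0864), *Clcn3* without any array but tumor replicate 1 (0.0621 to 0.0942) and *Slc26a6* without any but control replicate 3 (0.0609 to 0.131).

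Of 11 tested potassium channel genes other than the members, 1 was higher and 3 were lower. *Kcnk2* and *Kcnk3*, relatives of *Kcnk1*, fell, the former from 592.3, 749.5 and 653.8 to 198.4, 141.5 and 82.2, or −2.32 ± 0.34 (SE) on the log2 scale (adjusted p = 0.00256), and the latter by at least 6.28-fold (adjusted p = 0.00313), since its tumors all lay below 50. *Kcnq5* fell by 1.62 on the log2 scale (adjusted p = 0.00191). *Kcnk6* had 0.80 (adjusted p = 0.0302) and was not called without control replicate 2 or 3 or tumor replicate 2 or 3 (adjusted p from 0.0660 to 0.104). *Kcnj8* and *Kcnj10* had 0.15 (adjusted p = 0.774) and 0.30 (adjusted p = 0.698). The relatives of *Kcnn4* were not tested, and *Kcnn2* had 32.2 to 66.7 in control glands and 93.3 to 107.4 in tumors.

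Of 3 tested phosphate transport genes, *Slc20a2* was higher, with 690.3, 805.1 and 758.4 in control glands, 1340, 1052 and 1171 in tumors and 0.66 ± 0.20 (SE) on the log2 scale (adjusted p = 0.0427). It was not called without any 1 of the 6 arrays (adjusted p from 0.0556 to 0.128). Nor was it called with the mean over its probe sets (log2 fold change 0.49, adjusted p = 0.190). *Xpr1* and *Slc20a1* had −0.17 (adjusted p = 0.568) and −0.41 (adjusted p = 0.351). *Fxyd3*, *St14* and *Prss8* moved in the direction of the epithelial markers, and *Fxyd1*, *Slc4a4* and *Kcnk3* in that of the adipocyte and fibroblast markers, whose part in these results was not tested.

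**Figure D4:**
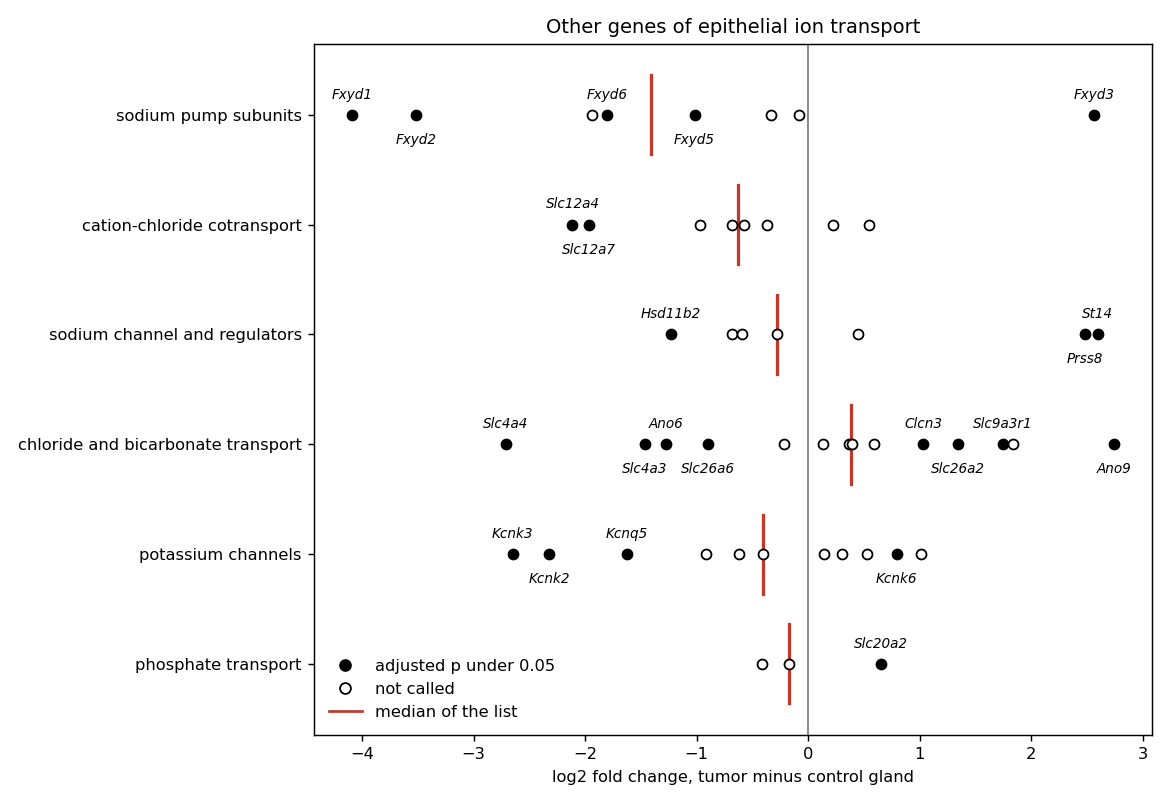
Log2 fold change, tumor minus control gland, of the 51 tested genes in 6 lists of epithelial ion transport, with 1 point for each gene. Filled points have an adjusted p under 0.05, open points do not, the red line is the median of the list, and the named points are called genes such as *Fxyd3* (2.57), *St14* (2.60) and *Slc4a4* (−2.71).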

How the data were processed

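RNA of 3 mammary tumors and 3 control mammary glands had been measured on 6 Affymetrix GeneChip M430 2.0 arrays. The deposited values are linear signal intensities that the authors computed by MAS 5.0 in GCOS, whose versions are not given in the sources used here, and scaled each array to a common target signal, so that the trimmed means were near 500.002 on every array. Such scaling assumes that total signal is equal between tissues. The number of arrays limits the precision.

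Of 45101 probe sets 64 controls were left out, 34945 carried a single symbol, 932 more than 1 and 9160 none in the annotation used here. A probe set was kept when 3 or more arrays reached a signal of 100, and each of 12518 genes was represented by its brightest one (mean of log2 signals). The comparison used limma 3.58.1 (lmFit, eBayes) under R 4.3.3, 2-sided, with Benjamini-Hochberg adjustment over all genes, called at an adjusted p under 0.05. Each probe set of the members was also tested in a fit of all 26967 kept probe sets. Folds against a group with all signals below 50 are lower bounds.

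The members, lists, tests and alternatives were chosen with earlier results of these data known. Genes named were the 8 members, up to 4 called genes with the largest change and the 2 with the highest adjusted p of each list, the marker with the highest mean signal of each list and the 3 nearest patterns to *Kcnn4*. *Fxyd5*, *Clcn3*, *Slc26a2*, *Ano6*, *Slc26a6*, *Scnn1g*, *Kcnn2*, *Sox10* and *Oxtr* were named after their values were seen. The endothelial list 7 of 8 lower, the leukocyte list 3 of 3 lower, and the milk and muscle lists none called of 8 each. The alternatives were other floors, transforms, normalizations, filters, probe set rules, a variance trend, a replicate block, each array left out and the methods' t-test. The fit was tested on simulated data.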

Additional observations from a re-analysis of the deposited data

How the results depend on the processing

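*Kcnk1* kept its direction and its call under all 19 alternatives (log2 fold change 1.99 to 2.83, adjusted p 0.00119 to 0.0489), and *Kcnn4* under 18, the exception being the methods' t-test with Benjamini-Hochberg adjustment (log2 ratio 4.59, adjusted p = 0.152). *Slc34a2* stayed uncalled under all 19. *Scnn1a* was not called with a floor of 16 or with no filter (log2 fold change −1.53 in both, adjusted p = 0.0521 and 0.143) or by the methods' t-test (log2 ratio −1.46, with Benjamini-Hochberg adjusted p = 0.234). Without single arrays the log2 fold change ran from −1.96 to −1.12 for *Scnn1a*, from −1.66 to −0.68 for *Slc12a2*, from −1.16 to −0.25 for *Scnn1b* and from −0.85 to 0.26 for *Atp1b1*, where it was positive without tumor replicate 3. Leave-one-out counts were 2392 to 3557 genes called of all, 14 to 22 of the pathway lists, 2 to 4 members and 4 to 6 member probe sets. By the methods' t-test 1605 genes and 8 of the pathway lists were called, and after Benjamini-Hochberg adjustment 140 genes, 2 of the pathway lists and 1 member, *Kcnk1*. With no filter 2 member probe sets were called. The leave-one-out range of the log2 fold change crossed 0 for *Kcnj8* (−0.20 to 0.45), *Wnk2* (−0.81 to 0.16), *Slc26a11* (−0.38 to 0.12), *Slc4a2* (−0.17 to 0.46) and *Fxyd4* (−0.26 to 0.0237). *Fxyd4* had 0.15 with quantile normalization and with equal array medians, where *Slc26a11* had 0.0242 and *Xpr1* 0.066. None of these genes was called. Of 23 called genes in the pathway lists, 14 kept their call in every alternative that fitted them, apart from the methods' t-tests. *Fxyd2*, *Hsd11b2*, *Ano9*, *Kcnk3*, *Kcnq5* and *Kcnj10* could not be fitted without some single arrays, since they then missed the filter; others lacked one under the stricter filter or probe set rule. Elsewhere the cause was not tested.

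The labels number the replicates 1 to 3 in both groups but do not say that a number pairs samples. The deviations of same-numbered samples from their group means correlated at −0.22, 0.02 and 0.04. Those of differently numbered samples correlated at −0.16 to 0.13. With 3 samples in each group, these values cannot decide whether a number pairs samples. With the replicate block 3490 genes, 19 genes of the pathway lists, 3 members and 5 member probe sets were called.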
